A study of Homo sapiens with 8 samples.

Results

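The cholesterol and fatty acid synthesis genes were 38 genes of the 38551 with values in the count table, chosen by name as the enzymes, regulators and carriers of sterol and fatty acid metabolism. By role they were grouped into 8 genes of the mevalonate steps, 11 of the squalene and sterol steps, 4 regulators of the sterol response, 5 genes of lipoprotein uptake and intracellular sterol transport, 2 efflux pumps and 8 genes of fatty acid synthesis. They were measured by RNA-seq of polyA RNA in MOLM-13, an established KMT2A-rearranged (KMT2A-r) line of acute myeloid leukemia. PR-957 (ONX-0914) was given at 100 nM for 72 h before 4 of the libraries were made, and its diluent DMSO for the same time before another 4. PR-957 blocks PSMB8, a catalytic subunit of the immunoproteasome, and the comparison asked how these genes stood after that treatment. Both groups came from the same line, for which the labels name no engineered allele, and were grown in medium with fetal bovine serum. No label tied the libraries to separate cultures, so p-values measure the spread between these libraries, which may be technical.

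Cells make cholesterol from acetyl-CoA through mevalonate, isoprenoids and squalene, and fatty acids through malonyl-CoA and fatty acid synthase. Both routes are transcribed under the SREBP factors, encoded by SREBF1 and SREBF2, which the escort protein SCAP carries to the Golgi for cleavage when membrane sterol is low and which INSIG1 holds back when it is high. Sterol in excess activates the LXR receptors instead, whose targets include the efflux pumps ABCA1 and ABCG1 and the ubiquitin ligase MYLIP, which removes lipoprotein receptors.

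Library totals ran from 16675036 to 23111223 counts. The 8 myeloid markers checked were detected in all libraries, with a summed level of 1618 to 1694 CPM in DMSO and 2308 to 2557 CPM in PR-957, in which CPM (edgeR) is a count relative to the scaled library total. This sum does not show that each myeloid marker was higher after treatment. Over all libraries LYZ ran from 136 to 941 CPM, MPO from 159 to 553 and FLT3 from 155 to 347. The paper lists FLT3 among its down-regulated genes. The 6 markers of other lineages summed to at most 2.90 CPM with DMSO and 3.43 CPM with PR-957, and CD3E was at 0 in all libraries. Mitochondrially encoded transcripts took 1.94% to 2.75% of counts in DMSO and 4.15% to 5.24% in PR-957, and ribosomal protein genes took 17.8% to 19.1% and 13.7% to 15.5%. Scaling without these genes was among the alternatives, and any other part of these differences in the results was not tested. In bulk RNA fewer cells of a kind and less RNA per cell cannot be told apart.

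DMSO replicate 4 stood apart from the other DMSO libraries. Its typical gene lay 0.152 on the log2 scale from the rest of its group, against 0.0997 to 0.107 for DMSO replicates 1 to 3 and 0.0833 to 0.114 for the PR-957 libraries. Among the 37 members that could be tested, 21 (56.8%) were at least 1.25-fold above the highest other DMSO library in DMSO replicate 4, while 7.39% of all genes tested were. These 21 included 14 of the 19 genes of the mevalonate, squalene and sterol steps. The library was the highest of all 8 in 25 members. Fold changes and counts of called members are therefore given with all 8 libraries and again without DMSO replicate 4, and the cause of its higher levels was not tested.

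With all 8 libraries, 8 members (21.6%) were lower after PR-957 treatment and 4 (10.8%) were higher at an adjusted p under 0.05, where 23.5% of all 13179 genes tested were lower and 23.1% were higher. Adjusted p-values here are from the quasi-likelihood test of edgeR with Benjamini-Hochberg adjustment over all genes tested. Without DMSO replicate 4, 15 members (40.5%) were lower and 10 (27%) were higher, against 23.7% and 23.4% of 13331 genes. Of the members, 11 were called in the same direction in both fits. GGPS1, FDFT1, SREBF1, SREBF2, VLDLR, STARD4 and SCD were lower, and EBP, ACLY, FASN and ELOVL6 were higher. MVK was called only with all libraries, 14 members were called only without DMSO replicate 4, and 0 were called in opposite directions. Other single libraries also moved the counts with DMSO replicate 4 kept: 5 members were lower without PR-957 replicate 4, and 2 were higher without DMSO replicate 1, PR-957 replicate 1 or PR-957 replicate 4. In 12 members (32.4%) every PR-957 library lay below every DMSO library, against 21.7% of all genes tested, and in 3 (8.11%) every PR-957 library lay above, against 20.8%. The next largest source of spread after treatment set replicates 1 and 2 apart from 3 and 4, which no label names as a batch. Within replicates 1 and 2 alone 11 members were lower and 8 were higher, against 20.2% of all genes in each direction, and within replicates 3 and 4 alone 7 and 2, against 17.3% in each. With libraries scaled by their totals alone, 5 members were lower and 5 were higher. That scaling moved the median log2 fold change of all genes from 0.003 to 0.08. The shares of all genes called were not computed for it or for the other single libraries left out.

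**Figure D1:**
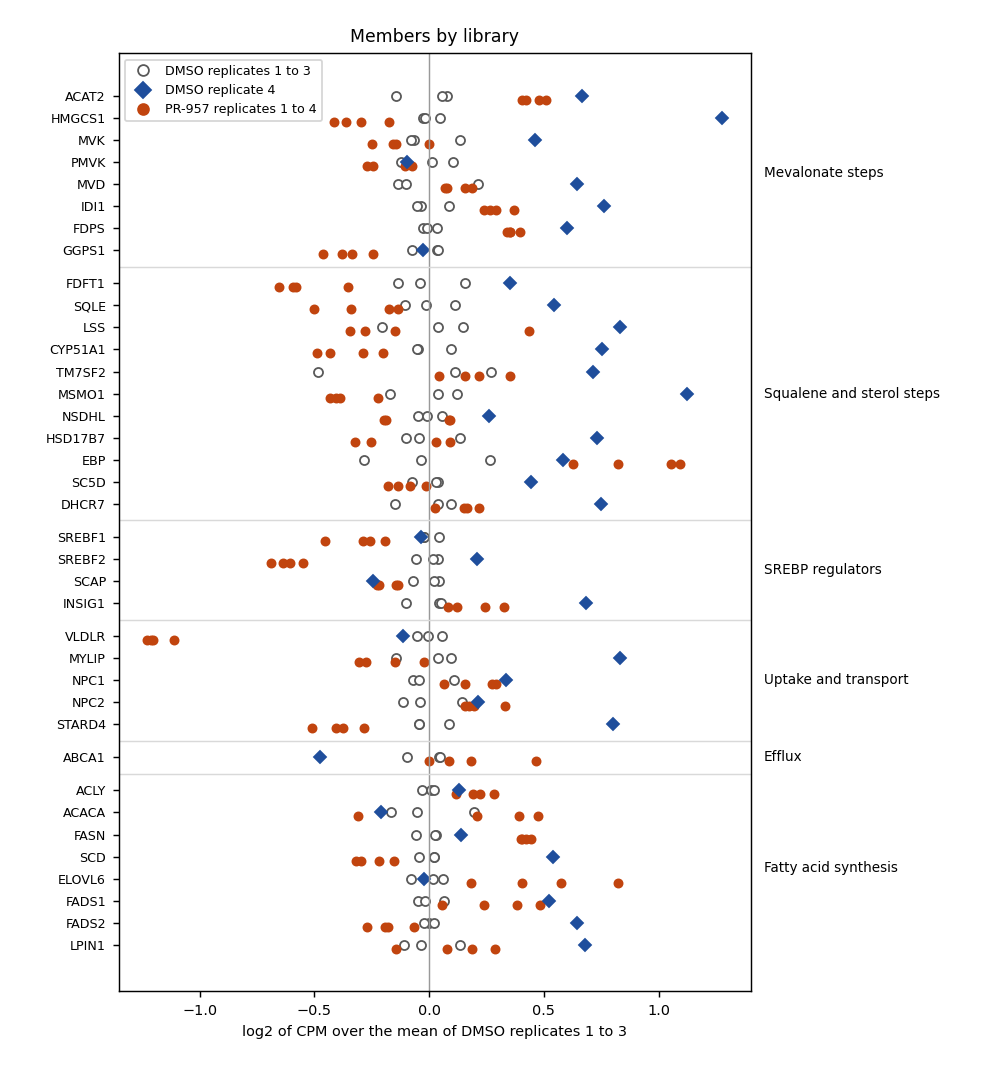
Level of the 37 tested members in each library, as log2 of CPM over the mean of DMSO replicates 1 to 3, grouped by role. Open circles are DMSO replicates 1 to 3, blue diamonds DMSO replicate 4 and orange circles the PR-957 libraries. The diamond lies to the right of the open circles in most synthesis genes, farthest for HMGCS1 (2.42-fold) and MSMO1 (2.18-fold), and within or left of them in GGPS1, SREBF1 and VLDLR.

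The bases before the start site are shown for 4 members because of the SREBP and NF-Y sites for which sterol genes are known, and these 4 were chosen after their values were seen. SREBF2 is the sole member whose window held the sterol element core searched, MSMO1 and EBP are sterol enzymes with log2 fold changes of opposite sign, and SCD had the highest level. Capitals mark the sterol element core TCACNCCAC and the NF-Y box CCAAT, which reads ATTGG where it lies on the other strand. The sequences are from RefSeq (GRCh38.p14), each of 250 bases on the plus strand ending at the base before the RefSeq start: chr22:41832855-41833104 for SREBF2, chr4:165327419-165327668 for MSMO1, chrX:48521558-48521807 for EBP and chr10:100346983-100347232 for SCD.
SREBF2: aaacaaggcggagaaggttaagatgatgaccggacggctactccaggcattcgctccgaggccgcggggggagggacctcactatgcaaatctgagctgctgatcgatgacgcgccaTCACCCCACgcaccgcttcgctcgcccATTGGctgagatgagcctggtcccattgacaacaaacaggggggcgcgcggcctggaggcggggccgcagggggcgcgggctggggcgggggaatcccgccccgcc
MSMO1: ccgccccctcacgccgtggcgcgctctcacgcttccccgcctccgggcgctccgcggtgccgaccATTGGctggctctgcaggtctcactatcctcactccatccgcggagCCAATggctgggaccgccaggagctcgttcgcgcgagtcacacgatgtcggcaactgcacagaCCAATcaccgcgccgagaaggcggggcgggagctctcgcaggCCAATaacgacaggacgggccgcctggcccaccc
EBP: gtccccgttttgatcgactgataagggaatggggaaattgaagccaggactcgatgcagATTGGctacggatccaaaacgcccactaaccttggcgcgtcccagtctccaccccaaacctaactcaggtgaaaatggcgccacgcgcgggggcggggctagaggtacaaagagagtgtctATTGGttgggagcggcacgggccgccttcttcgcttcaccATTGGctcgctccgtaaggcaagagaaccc
SCD: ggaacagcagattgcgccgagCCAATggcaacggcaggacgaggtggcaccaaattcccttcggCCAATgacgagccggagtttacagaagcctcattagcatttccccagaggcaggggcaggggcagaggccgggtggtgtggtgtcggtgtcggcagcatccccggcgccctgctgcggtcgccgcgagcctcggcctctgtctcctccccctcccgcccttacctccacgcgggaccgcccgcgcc
The SREBF2 window held 1 sterol element core, which began at position -133 counted from the start, and 1 NF-Y box at position -106, and it lay within an exon of the antisense gene SREBF2-AS1. The MSMO1 window held 4 NF-Y boxes, the EBP window 3 and the SCD window 2.

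RefSeq windows of 300 bases, from 250 before to 50 after a start, were found for 33 of the 38 members and searched on both strands. At least 1 NF-Y box lay in 23 of the 33 (69.7%), compared with 43.1% of 9912 tested genes that have a window. The share was 87.5% for the 16 mevalonate, squalene and sterol members with a window and 57.1% for the 7 fatty acid members. The sterol element core was in 1 of 33 (3.03%) and in 1.36% of tested genes. The E-box CACGTG, which is its own reverse complement, was in 5 of 33 (15.2%) and in 12.8% of tested genes. The LXR element DR4, searched as 2 exact AGGTCA half-sites spaced by 4 bases, was in 0 of 33 members and in 1 of the 9912 tested genes (0.0101%). A pattern this rare could hardly be found among 33 genes, so its absence says nothing about LXR sites in them. The amino acid response core TGATGNAA was in 0 of 33 members, against 2.77% of tested genes. Members with several windows had more chances of a match, and a match shows the letters, not a bound site. DMSO replicate 4 was above DMSO replicates 1 to 3 by a median of 0.62 on the log2 scale in the 16 members with at least 2 boxes in a window, by 0.64 in the 7 members with 1 box and by -0.03 in the 10 with none. The same medians over all genes tested were -0.04, -0.02 and -0.02. Members without a box were split. CYP51A1 (0.75), LPIN1 (0.68), FADS1 (0.52) and NPC1 (0.33) were above, while PMVK, SREBF1, SCAP, VLDLR, ABCA1 and ELOVL6 were below. Members with and without boxes also differed in role, and the part of each was not tested.

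**Figure D2:**
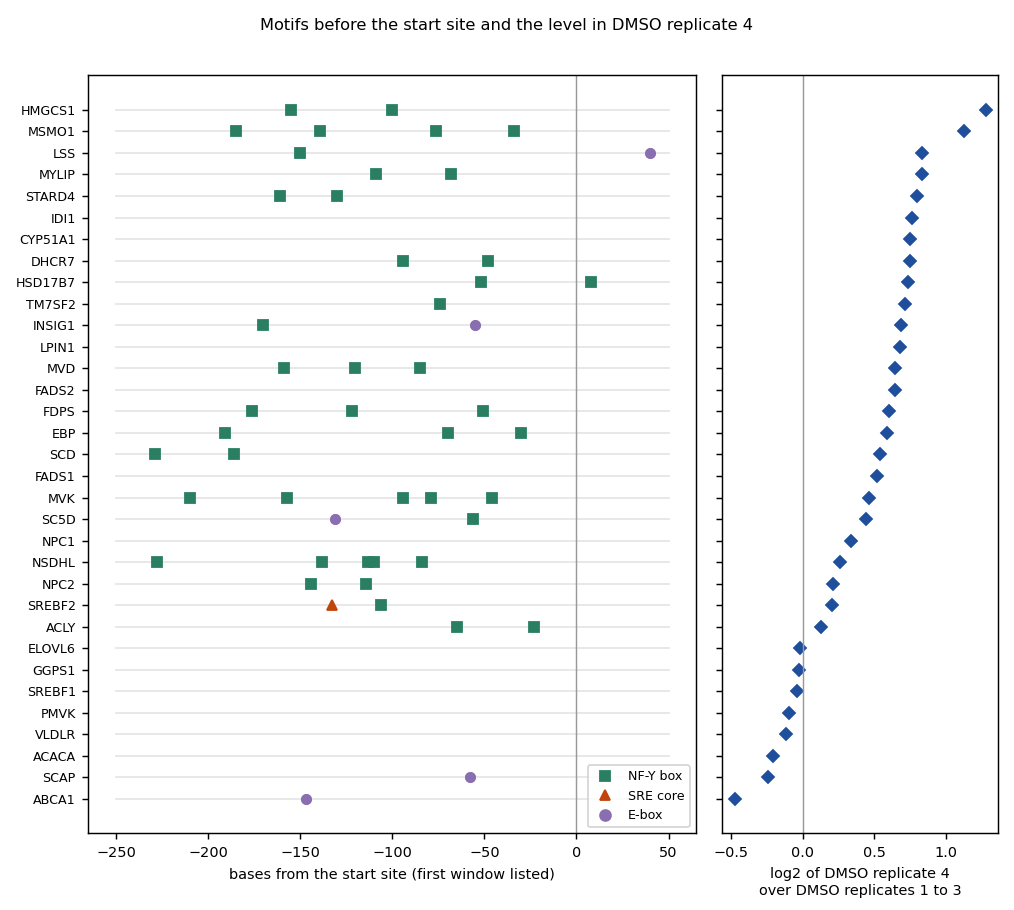
Left, positions of NF-Y boxes (squares), the sterol element core (triangle) and E-boxes (circles) in the first RefSeq window of each of 33 members, in bases from the start site. Right, log2 of the CPM in DMSO replicate 4 over the mean of DMSO replicates 1 to 3, by which the genes are ordered. NF-Y boxes are seen in most genes from HMGCS1 down to ACLY, among them 4 in MSMO1 and 3 in FDPS, and in none of the first windows of the genes listed after ACLY, and 1 sterol element core is seen, in SREBF2.

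The mevalonate steps did not move as a block. With all 8 libraries 2 of the 8 genes were lower, GGPS1 and MVK, and 0 were higher. Without DMSO replicate 4, GGPS1, HMGCS1 and PMVK were lower while ACAT2, IDI1 and FDPS were higher. The median log2 fold change of the 8 genes was -0.11 with all libraries and -0.01 without DMSO replicate 4, beside 0.003 and 0.007 over all genes tested.

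GGPS1 makes geranylgeranyl diphosphate, the lipid that anchors many small GTPases. It was at 66.1, 61.2, 66.3 and 63.3 CPM in DMSO replicates 1 to 4 and at 51.1, 54.4, 49.5 and 46.8 CPM in PR-957 replicates 1 to 4, so the groups did not overlap. The log2 fold change of GGPS1 was -0.35 (SE 0.06, adjusted p = 0.000118) with all libraries and -0.36 without DMSO replicate 4. The call held under the 22 alternatives without a fold threshold, but not against a 1.2-fold threshold (adjusted p = 0.115).

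HMGCS1, the HMG-CoA synthase at chr5:43287470-43313477 (hg38, minus strand), was at 188, 179, 180 and 442 CPM in DMSO and at 137, 142, 148 and 162 CPM in PR-957. All PR-957 libraries lay below all DMSO libraries, and DMSO replicate 4 was 2.42-fold above the mean of the other DMSO libraries, the largest such ratio among the members. The log2 fold change was -0.75 (SE 0.34, adjusted p = 0.121) with all libraries and -0.31 (SE 0.06, adjusted p = 0.000102) without DMSO replicate 4. The smaller difference was thus the one that passed the test.

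ACAT2, which joins acetyl-CoA units at the start of the pathway, was at 119, 102, 117 and 178 CPM in DMSO and at 157, 149, 160 and 150 CPM in PR-957. The PR-957 libraries lay above DMSO replicates 1 to 3 and below DMSO replicate 4. Its log2 fold change was 0.25 (adjusted p = 0.277) with all libraries and 0.45 (SE 0.06, adjusted p = 1.68e-06) without DMSO replicate 4. FDPS, the farnesyl diphosphate synthase and target of the bisphosphonate drugs, had the same order of libraries. It was at 262, 265, 273 and 405 CPM in DMSO and at 350.3, 341, 337 and 341 CPM in PR-957. Its log2 fold change was 0.18 (adjusted p = 0.329) with all libraries and 0.36 (SE 0.05, adjusted p = 2.45e-06) without DMSO replicate 4. IDI1, the isopentenyl diphosphate isomerase that precedes FDPS, shared this order, with 0.06 (adjusted p = 0.836) against 0.29 (SE 0.05, adjusted p = 0.000168). Of the 8 libraries left out in turn, only DMSO replicate 4 brought these 3 genes past the threshold.

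The kinases differed less. MVK, the mevalonate kinase, was lower with all libraries (log2 fold change -0.27, SE 0.11, adjusted p = 0.0486) but not without DMSO replicate 4 (-0.14, adjusted p = 0.173), and the call was also lost without DMSO replicate 1 or without PR-957 replicate 2, 3 or 4 (adjusted p from 0.0868 to 0.144). PMVK, the phosphomevalonate kinase, was not called with all libraries (-0.15, adjusted p = 0.0746) and was lower without DMSO replicate 4 (-0.17, adjusted p = 0.0337), DMSO replicate 2 (adjusted p = 0.0478) or PR-957 replicate 1 (adjusted p = 0.0392). MVD, the decarboxylase, was at -0.07 (adjusted p = 0.765) with all libraries and 0.12 (adjusted p = 0.184) without DMSO replicate 4, and was called in neither fit.

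In the squalene and sterol steps, FDFT1 was lower and EBP was higher with all 8 libraries, and the other 9 of 11 genes were not called. Without DMSO replicate 4, FDFT1, SQLE, CYP51A1 and MSMO1 were lower and EBP was higher. The median log2 fold change of the 11 genes was -0.32 with all libraries and -0.10 without DMSO replicate 4.

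FDFT1 is squalene synthase, which commits the pathway to sterols. It was at 56.2, 64.3, 52.6 and 73.6 CPM in DMSO and at 36.7, 45.1, 38.3 and 38.6 CPM in PR-957, with no overlap. The log2 fold change of FDFT1 was -0.64 (SE 0.10, adjusted p = 0.000121) with all libraries and -0.54 (SE 0.08, adjusted p = 1.15e-05) without DMSO replicate 4, and it was called under the same 22 alternatives and against the 1.2-fold threshold (adjusted p = 0.0023). Part of this gene is also placed on an alternate contig of the assembly, so its level is uncertain.

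SQLE, the squalene epoxidase, was at 85.6, 73.6, 78.3 and 115 CPM in DMSO and at 70.02, 72.1, 56.0 and 62.4 CPM in PR-957. The groups were close but did not overlap. Its log2 fold change of -0.44 (SE 0.16, adjusted p = 0.0510) did not pass with all libraries and passed without DMSO replicate 4 (-0.28, adjusted p = 0.00735), DMSO replicate 2 (adjusted p = 0.0223) or DMSO replicate 3 (adjusted p = 0.0448). CYP51A1, the lanosterol demethylase, was at 113, 102, 102 and 177 CPM in DMSO and at 78.0, 91.7, 86.3 and 75.0 CPM in PR-957. All its PR-957 libraries were below all its DMSO libraries. The difference was -0.58 on the log2 scale (SE 0.21, adjusted p = 0.0592) with all libraries and -0.35 (SE 0.07, adjusted p = 0.000210) without DMSO replicate 4. The call was also made without DMSO replicate 3 (adjusted p = 0.0495). MSMO1, the methylsterol oxidase whose promoter is shown above, was at 58.6, 47.8, 55.3 and 118 CPM in DMSO and at 40.7, 41.1, 46.2 and 40.0 CPM in PR-957. It too had no overlap between the groups, and its log2 fold change was -0.74 (SE 0.31, adjusted p = 0.0977) with all libraries and -0.36 (SE 0.07, adjusted p = 0.000362) without DMSO replicate 4.

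EBP, the sterol isomerase at chrX:48521808-48528716 (plus strand), went the other way. It was at 60.9, 51.3, 75.1 and 93.7 CPM in DMSO and at 111, 96.4, 133 and 129 CPM in PR-957, so every PR-957 library was above every DMSO library. Its log2 fold change was 0.74 (SE 0.21, adjusted p = 0.0274) with all libraries and 0.91 (SE 0.17, adjusted p = 0.00587) without DMSO replicate 4, the largest increase among the members in both fits. The DMSO libraries of this gene were widely spread, and the call was lost without DMSO replicate 1 or 3 or without PR-957 replicate 1, 3 or 4 (adjusted p from 0.0516 to 0.0741).

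The other sterol enzymes passed in neither fit. LSS, the lanosterol synthase, was at -0.32 (adjusted p = 0.262) with all libraries and -0.06 without DMSO replicate 4, at under 7 CPM in every library and with a second placement on the assembly. NSDHL, HSD17B7 and SC5D, which act on the way from lanosterol to cholesterol, had log2 fold changes of -0.12, -0.33 and -0.23 with all libraries. Of these, SC5D was called without DMSO replicate 3 (adjusted p = 0.0240). TM7SF2, a sterol reductase, and DHCR7, the reductase of the last step, changed sign, from -0.03 to 0.20 and from -0.09 to 0.14 when DMSO replicate 4 was left out.

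**Figure D3:**
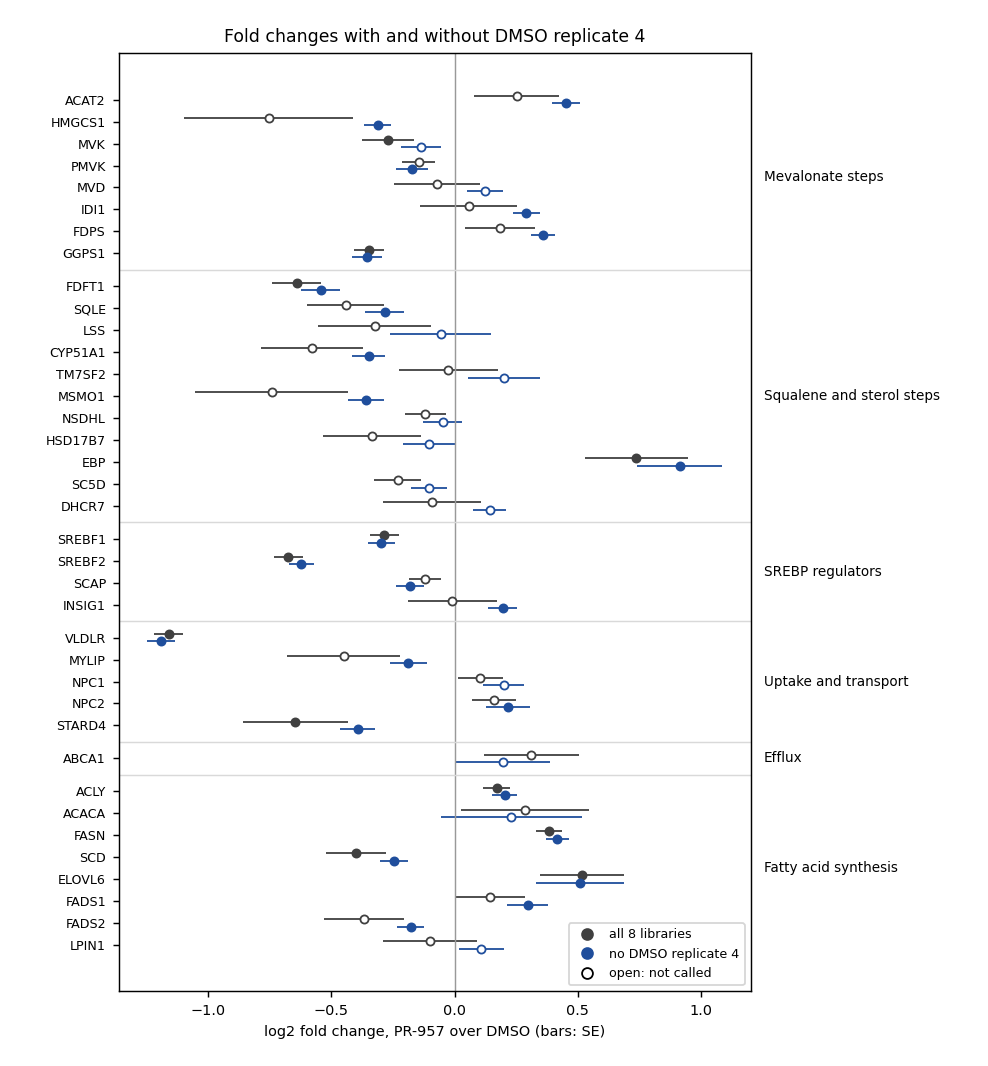
Log2 fold change of PR-957 over DMSO for the 37 tested members (bars, SE), with all 8 libraries (grey) and without DMSO replicate 4 (blue). Filled points had an adjusted p under 0.05 in the edgeR test and open points did not. The grey bars are long for HMGCS1 (SE 0.34) and MSMO1 (SE 0.31), and the blue points of many synthesis genes lie to the right of the grey ones and are filled.

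Among the regulators, both SREBP genes were lower and the values of SCAP and INSIG1 depended on DMSO replicate 4. SREBF2, the main factor for sterol genes (chr22:41833105-41907308, plus strand), was at 250.1, 247, 234 and 281 CPM in DMSO and at 157, 166, 160.1 and 151 CPM in PR-957. The groups were far apart. SREBF2 fell by 0.67 on the log2 scale (SE 0.06, adjusted p = 2.88e-08) and by 0.62 (SE 0.05) without DMSO replicate 4. SREBF1, which leans to fatty acid genes, was at 232, 222, 222 and 219 CPM in DMSO and at 197, 184, 189 and 164 CPM in PR-957. It fell by 0.29 on the log2 scale (SE 0.06, adjusted p = 0.000468) and by 0.30 without DMSO replicate 4. Both were called under the 22 alternatives without a fold threshold, and against the 1.2-fold threshold SREBF2 was (adjusted p = 3.48e-06) and SREBF1 was not (adjusted p = 0.400).

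SCAP was at 75.7, 70.002, 74.6 and 61.9 CPM in DMSO and at 63.1, 66.5, 66.9 and 62.6 CPM in PR-957. It is among the members for which DMSO replicate 4 was the lowest library, and it was lower only without that library (log2 fold change -0.18, adjusted p = 0.0106, against -0.12, adjusted p = 0.138). INSIG1, itself a target of the SREBPs, was at 240.1, 217, 241 and 374 CPM in DMSO and at 246, 253, 292 and 276 CPM in PR-957. Here DMSO replicate 4 was the highest library, and the log2 fold change was -0.01 (adjusted p = 0.972) with all libraries and 0.19 (SE 0.06, adjusted p = 0.0109) without it.

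Of the uptake and transport genes, VLDLR and STARD4 were lower in both fits. VLDLR, a receptor for triglyceride-rich lipoproteins at chr9:2621786-2660056 (plus strand), was at 101, 96.5, 93.4 and 89.4 CPM in DMSO and at 41.3, 44.8, 42.1 and 41.8 CPM in PR-957. This was the largest decrease among the members and the libraries within each group were close, DMSO replicate 4 included. VLDLR fell by 1.16 on the log2 scale (SE 0.06, adjusted p = 8.43e-12) and by 1.19 without DMSO replicate 4.

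STARD4, a cytosolic carrier of cholesterol, was at 42.5, 38.8, 38.8 and 69.6 CPM in DMSO and at 28.1, 30.2, 30.8 and 32.8 CPM in PR-957. The groups did not overlap, and the log2 fold change was -0.65 (SE 0.21, adjusted p = 0.0431) with all libraries and -0.39 (SE 0.07, adjusted p = 0.000109) without DMSO replicate 4. With DMSO replicate 4 kept, the call was lost without DMSO replicate 1 or any PR-957 library (adjusted p from 0.0598 to 0.108). MYLIP, the ligase that removes lipoprotein receptors, was lower only without DMSO replicate 4 (-0.19, adjusted p = 0.0427, against -0.45, adjusted p = 0.158). NPC2 and NPC1 pass cholesterol out of the lysosome. NPC2 was higher only without DMSO replicate 4 (0.22, adjusted p = 0.0497, against 0.16, adjusted p = 0.154), and NPC1 was called in neither fit (0.10, adjusted p = 0.370, and 0.20, adjusted p = 0.0557).

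The efflux pumps were low, and the increase of ABCA1 did not pass the test. ABCA1 was at 3.19, 2.90, 3.20 and 2.23 CPM in DMSO and at 3.29, 4.28, 3.52 and 3.09 CPM in PR-957, and the groups overlapped. Its log2 fold change was 0.31 (SE 0.19, adjusted p = 0.194) with all libraries and 0.20 (adjusted p = 0.425) without DMSO replicate 4, and it passed under 0 of the 22 alternatives. ABCG1 had 0 counts in each DMSO library and 0, 1, 1 and 4 counts in PR-957 replicates 1 to 4. It was too low to test, since a count of 0 allows up to 3 counts, or 0.130 to 0.180 CPM by library, and no fold is given.

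With all 8 libraries ACLY, FASN and ELOVL6 were higher and SCD was lower, and without DMSO replicate 4 FADS1 was also higher and FADS2 also lower. The median log2 fold change of the 8 genes was 0.16 with all libraries and 0.22 without DMSO replicate 4. FASN, the fatty acid synthase at chr17:82078338-82098303 (minus strand), was at 347, 345, 326 and 374 CPM in DMSO and at 448, 456, 450.2 and 462 CPM in PR-957. The groups did not overlap, and FASN rose by 0.38 on the log2 scale (SE 0.05, adjusted p = 9.94e-06) and by 0.42 without DMSO replicate 4. ACLY, which makes the cytosolic acetyl-CoA for both routes, was at 228, 235, 237 and 255 CPM in DMSO and at 254, 266, 273 and 284 CPM in PR-957. PR-957 replicate 1 lay just below DMSO replicate 4, and the log2 fold change was 0.17 (SE 0.05, adjusted p = 0.0151) and 0.20 without DMSO replicate 4. The call of ACLY was lost without DMSO replicate 1 (adjusted p = 0.0568) or PR-957 replicate 4 (adjusted p = 0.0558).

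ELOVL6, which lengthens palmitate to stearate, was at 3.63, 3.40, 3.74 and 3.54 CPM in DMSO and at 6.35, 4.07, 4.75 and 5.34 CPM in PR-957. All PR-957 libraries were above all DMSO libraries, and the log2 fold change was 0.52 (SE 0.17, adjusted p = 0.0178) and 0.51 without DMSO replicate 4. Without PR-957 replicate 1 the adjusted p was 0.0863. SCD, the desaturase that makes oleate, was at 1592, 1521, 1593 and 2279 CPM in DMSO and at 1259, 1410.1, 1348 and 1278 CPM in PR-957. All its PR-957 libraries were below all DMSO libraries, and the log2 fold change was -0.40 (SE 0.12, adjusted p = 0.0225) with all libraries and -0.25 (SE 0.06, adjusted p = 0.00107) without DMSO replicate 4. With DMSO replicate 4 kept, the call was lost without PR-957 replicate 1 (adjusted p = 0.0976) or 4 (adjusted p = 0.103).

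The desaturases FADS1 and FADS2, which make polyunsaturated fatty acids and overlap at their ends on opposite strands of chromosome 11, had log2 fold changes of opposite sign. FADS1 was higher only without DMSO replicate 4 (0.30, SE 0.08, adjusted p = 0.00629, against 0.14, adjusted p = 0.439). FADS2 was lower only without it (-0.18, SE 0.05, adjusted p = 0.0102, against -0.37, adjusted p = 0.104). LPIN1, a phosphatidate phosphatase, was called in neither fit and its log2 fold change went from -0.10 to 0.11. ACACA, the acetyl-CoA carboxylase, was at 1.06 to 1.83 CPM over all libraries and was not called (0.29, adjusted p = 0.383). Its gene has a further placement on the assembly, so its level is uncertain.

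Set side by side, the groups differed in how far they rested on DMSO replicate 4. The summed level of the mevalonate genes was 897, 839, 885 and 1437 CPM in DMSO and 951 to 968 CPM in PR-957, so that PR-957 lay above DMSO replicates 1 to 3 and below DMSO replicate 4. That of the squalene and sterol genes was 533, 488, 523 and 813 CPM in DMSO. In PR-957 it was 494 to 518 CPM, within the range of DMSO replicates 1 to 3. This sum joins opposite changes and does not show unchanged genes. EBP was at 51.3 to 75.1 CPM in DMSO replicates 1 to 3 and at 96.4 to 133 CPM in PR-957. FDFT1, SQLE, CYP51A1 and MSMO1 were lower without DMSO replicate 4. The fatty acid genes, of which SCD took the larger share in every library, summed to 2359, 2299, 2348 and 3204 CPM in DMSO. In PR-957 they summed to 2140.1, 2325, 2271 and 2226 CPM. Only PR-957 replicate 2 overlapped DMSO replicates 1 to 3, and the other PR-957 libraries lay below all DMSO libraries. This sum also joins opposite changes, SCD being lower and ACLY, FASN and ELOVL6 higher, as does the mevalonate sum without DMSO replicate 4.

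The regulators summed to 798, 756, 772 and 936 CPM in DMSO and 654 to 707 CPM in PR-957, and the uptake and transport genes to 227, 225, 229 and 297 CPM in DMSO and 158 to 171 CPM in PR-957. In these sums all PR-957 libraries were below all DMSO libraries with or without DMSO replicate 4. For uptake and transport that rested on VLDLR. Without VLDLR the sums were 126, 128, 136 and 208 CPM in DMSO and 116 to 129 CPM in PR-957, which overlapped. The gap of the regulator sum lay largely with SREBF2, at 234 to 281 CPM in DMSO and 151 to 166 CPM in PR-957. The groups of SREBF1 did not overlap either, while those of SCAP and INSIG1 did. The median log2 fold change was -0.20 for the regulators and -0.24 without DMSO replicate 4, and -0.45 and -0.19 for uptake and transport. Over all 37 members it was -0.12 and -0.06. The differences between role groups were not tested.

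**Figure D4:**
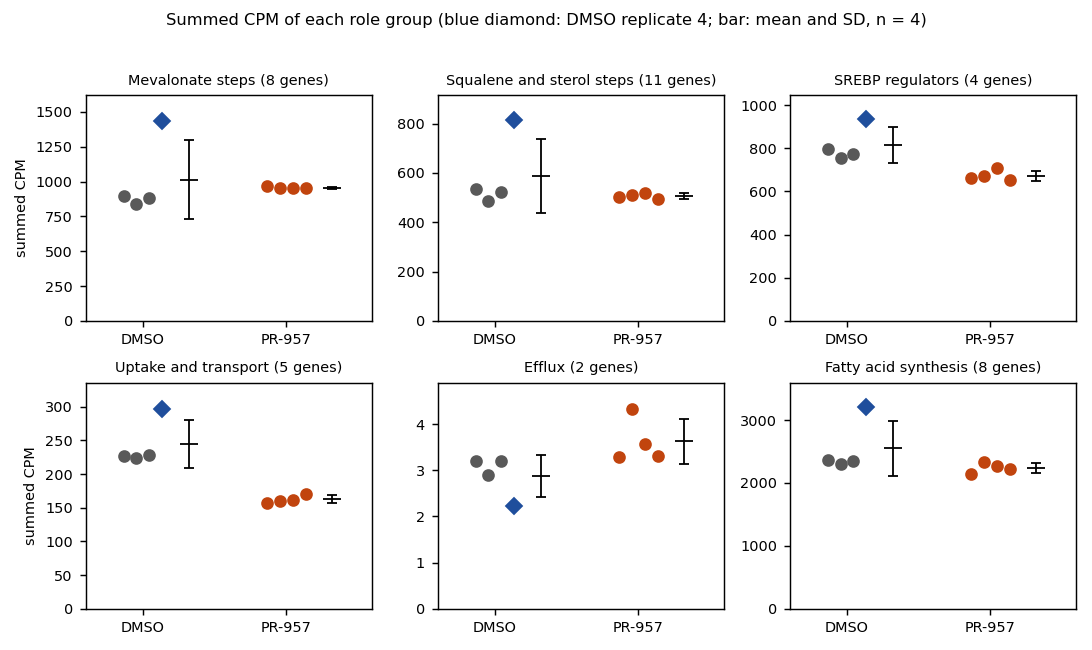
Summed CPM of each role group by library, with DMSO left and PR-957 right in each panel and the axis starting at 0. Grey and orange circles are libraries, the blue diamond is DMSO replicate 4 and the bar gives the mean and SD (n = 4). DMSO replicate 4 lies above the other DMSO libraries in every panel but efflux, and the DMSO SD is wide for the mevalonate genes (SD 283 CPM, and 7.48 CPM for the SD of PR-957).

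Per kilobase of exon, the DMSO levels ran from SCD at 333 ± 68.0 CPM per kb (SD, n = 4) and FDPS at 172 ± 39.5 through INSIG1 at 84.2 ± 22.4, ACAT2 at 70.8 ± 18.6 and EBP at 62.4 ± 16.4 to ABCA1 at 0.215 ± 0.034, ACACA at 0.0556 and ABCG1 at 0. The gaps from SCD to FDPS and from FDPS to INSIG1 exceeded these spreads. INSIG1, ACAT2 and EBP did not differ beyond theirs, which include DMSO replicate 4. Over DMSO replicates 1 to 3 INSIG1 was at 73.2 ± 4.22, ACAT2 at 61.7 ± 5.12 and EBP at 55.5 ± 10.6 CPM per kb (SD). There INSIG1 lay above ACAT2 and EBP beyond the spreads, and ACAT2 and EBP did not differ beyond theirs. In PR-957 the level of EBP was 104 CPM per kb, above ACAT2 at 84.5 and INSIG1 at 83.8.

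Another 103 genes of the same pathways, in 6 lists of further SREBP machinery, isoprenoid branches, sterol storage and transport, the LXR axis, other fatty acid synthesis and fatty acid oxidation, were counted beside the members. Of 96 that could be tested, 20 (20.8%) were lower and 25 (26%) were higher with all libraries, near the 23.5% and 23.1% of all genes tested. The counts were 21 (21.9%) and 31 (32.3%) without DMSO replicate 4, against 23.7% and 23.4% of all genes. The median log2 fold change of the 96 genes was 0.02 with all libraries and 0.05 without DMSO replicate 4. With library totals alone 16 were lower and 35 were higher. That scaling moved the median of all genes from 0.003 to 0.08, and the shares of all genes called under it were not computed. DMSO replicate 4 was at least 1.25-fold above the highest other DMSO library in 9 of the 96 (9.38%), beside 7.39% of all genes tested and 56.8% of the members.

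The other SREBP machinery was lower in 6 of 12 genes (50%) and higher in 1 (8.33%), and in 5 and 1 without DMSO replicate 4. MBTPS2, the membrane protease that releases the SREBPs, was at -0.65 on the log2 scale (SE 0.11, from 15.3 ± 1.02 to 9.76 ± 1.22 CPM, SD, n = 4), and PAQR3, which holds SCAP at the Golgi, was at -0.45. In the isoprenoid branches 1 of 11 was lower (9.09%) and 3 were higher (27.3%) in both fits, with COQ2 of ubiquinone synthesis at 0.43 and ICMT, which methylates prenylated proteins, at 0.35. Sterol storage and transport was lower in 2 of 15 (13.3%) and higher in 6 (40%) in both fits. Its largest changes were opposite for the sister sterol carriers GRAMD1A (-0.58) and GRAMD1B (0.63). The LXR axis was lower in 2 of 7, with the clock repressor NR1D1 at -0.50, and higher in 1, the lipid transporter ABCA7 at 0.38. It was higher in 3 without DMSO replicate 4, the further genes being the LXR receptor NR1H3 (0.59, adjusted p = 0.0024, against 0.30, adjusted p = 0.208, with all libraries) and its partner RXRB (0.63, adjusted p = 0.0313, against 0.36, adjusted p = 0.233), which were named after their values were seen.

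Other fatty acid synthesis was lower in 6 of 30 genes (20%) and higher in 8 (26.7%), and in 7 and 9 without DMSO replicate 4, near the shares of all genes tested. ELOVL3, an elongase of very long chains, rose from 1.08 ± 0.120 to 4.51 ± 0.687 CPM (log2 fold change 2.07, SE 0.21), and the desaturase SCD5 rose by 0.77 while SCD was lower. Fatty acid oxidation was lower in 3 of 21 (14.3%) and higher in 6 (28.6%), and in 4 and 9 without DMSO replicate 4, with the carnitine carrier SLC25A20 at 0.65 and the enoyl-CoA isomerase ECI1 at -0.71. Apart from NR1H3 and RXRB, all genes named from these lists had adjusted p-values under 0.05 in both fits.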

How the data were processed

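Per the submitters' processing notes the authors trimmed reads with Trimmomatic 0.39, aligned them to hg38 with STAR 2.7.10a and counted fragments with featureCounts 2.0.1. Per the file headers, fragments with both ends mapped were counted on the reverse strand against RefSeq gene models, which left the deposited table in raw counts per gene, not normalised. The counting command named 16 libraries, of which the 8 in the table were used and 8 were not analysed here. Of the gene entries, 6 held no values and were left out, and among the remaining 38551 genes 14724 were at 0 in every library. The authors' table of their own DESeq2 comparison, with means, log2 fold changes and p-values, was not used.

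Groups and replicate numbers came from the sample titles. Counts were scaled with edgeR's TMM factors, filtered with filterByExpr (13179 genes) and tested with glmQLFit and glmQLFTest of edgeR 4.0.16 in R 4.3.3, two-sided, with no covariate. Standard errors were the absolute log2 fold change over the square root of F. No pair of replicates was a duplicate library (lowest chi-square per gene 3.19, where sampling noise gives about 1). Counting limits cover counting error only. The script was tested on simulated data. Alternatives were DESeq2 1.42.0, limma 3.58.1 (voom), RLE, upper-quartile or library-total scaling, scaling without mitochondrial and ribosomal protein genes, other filters on low counts, a 1.2-fold threshold, a replicate block, a term for or a split into replicates 1 and 2 against 3 and 4, and leaving out each library. DESeq2 and library-total fits without DMSO replicate 4 were added after the data were seen.

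The members, role groups, other gene lists and rules were chosen with earlier results of these data known. All members were named, with library values for the SREBP regulators and for members called at 1.5-fold or more. Library values of other members, and the promoters shown, were chosen after their values were seen, because the planned rule, synthesis genes with a sterol element core, gave 0 genes. In each other list the 2 called genes with the largest absolute log2 fold change and an average log2 CPM of at least 1 were named. Of the 103 other genes, RABGGTA, DGAT1, CH25H and ACADL had 0 counts, and FNTB, GRAMD1C and ABCG4 were too low to test. RABGGTA and DGAT1 have a further placement on the assembly, and FNTB shares 92.5% of its exon bases with CHURC1-FNTB. Reads of these genes may thus have gone uncounted, and their low counts do not show that they were silent. Promoter windows came from RefSeq (GRCh38.p14).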

Additional observations from a re-analysis of the deposited data

Results flagged for a closer look

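In 13 of 86 groups of 4 libraries examined (each tested member and each summed role group, in DMSO and in PR-957), 1 library lay farther from the others than Dixon's test allows at the 95% level, measured as the gap to its nearest neighbour over the whole range of the group. Chance marks about 1 group in 20. All 13 were DMSO groups in which replicate 4 was the high library, and members share regulation, so they do not count as separate events. The ratio was 0.964 for HMGCS1, 0.868 for IDI1, 0.920 for FDPS, 0.856 for CYP51A1, 0.845 for MSMO1, 0.849 for INSIG1, 0.880 for STARD4, 0.905 for SCD and 0.945 for FADS2. For summed CPM it was 0.905 for the mevalonate genes, 0.861 for the squalene and sterol genes, 0.940 for uptake and transport and 0.933 for fatty acid synthesis. The cause of the high levels in this library was not tested.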

How the results depend on the processing

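Over the 22 alternatives without a fold threshold, 8 members kept direction and call in every one: FASN, FDFT1, GGPS1, SREBF1, SREBF2 and VLDLR, which were called, and ABCA1 and ACACA, which were not. Against the 1.2-fold threshold, GGPS1 and SREBF1 were no longer called. The count of members lower (8) was 11 with DESeq2, which added SQLE, CYP51A1 and MSMO1, and was 5 with library totals alone, 3 with the 1.2-fold threshold and 13 with DESeq2 without DMSO replicate 4, and 5 to 15 when 1 library was left out. The count higher (4) was 8 within replicates 1 and 2, 2 within replicates 3 and 4 and 1 with the 1.2-fold threshold. With DMSO replicate 4 left out it was 8 in DESeq2 and 13 with library totals. It was 2 to 10 when 1 library was left out of the edgeR fit. Without DMSO replicate 4, DESeq2 did not call PMVK, MYLIP, NPC2 or ELOVL6. Scaling without mitochondrial and ribosomal protein genes left the counts at 8 lower and 4 higher. Library totals alone moved the median of all genes to 0.08. The other pathway genes higher (25) were 35 with library totals alone, 31 without DMSO replicate 4 and 39 with both changes. Shares of all genes called were not computed for DESeq2, library totals, the 1.2-fold threshold or the other libraries left out.

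The sterol median (-0.32) was 0.045 within replicates 1 and 2, -0.70 within replicates 3 and 4 and -0.0134 with library totals without DMSO replicate 4. The regulator median (-0.20) was -0.12 with library totals and -0.15 with these without DMSO replicate 4. The uptake median (-0.45) was -0.16 and -0.68 within the pairs of replicates. With DMSO replicate 4 left out it was -0.10 with library totals and -0.19 in DESeq2. It was -0.56 to -0.19 when 1 library was left out of the edgeR fit. The efflux median (0.31) was 1.64 with DESeq2, 1.99 with no filter and 1.53 with DESeq2 without DMSO replicate 4, since ABCG1 with its few counts then entered. The fatty acid median (0.16) was 0.31 with library totals without DMSO replicate 4.

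Signs turned as follows, in members called in neither direction with all libraries. Without DMSO replicate 4, library totals and DESeq2 gave MVD 0.21 and 0.12, TM7SF2 0.29 and 0.20, DHCR7 0.23 and 0.14, INSIG1 0.29 and 0.19, and LPIN1 0.20 and 0.11, and library totals gave LSS 0.032 and NSDHL 0.039. Of these, MVD (adjusted p = 0.0190) and DHCR7 (adjusted p = 0.00489) were higher with library totals, and INSIG1 was higher with both (adjusted p = 0.000884 and 0.0110). Within replicates 1 and 2, MVD was 0.090, LSS 0.19, TM7SF2 0.30, NSDHL 0.084, HSD17B7 0.045, DHCR7 0.21 (adjusted p = 0.0250) and INSIG1 0.13, and within replicates 3 and 4 IDI1 was -0.22 and FDPS -0.0076. Library totals alone gave MVD 0.0034, TM7SF2 0.051 and INSIG1 0.067, limma-voom gave TM7SF2 0.013 and INSIG1 0.022, and the term for replicates 1 and 2 against 3 and 4 gave INSIG1 0.0030. With 1 library left out the ranges were -0.17 to 0.12 for MVD, -0.0281 to 0.29 for IDI1, -0.20 to 0.20 for TM7SF2, -0.20 to 0.14 for DHCR7, -0.10 to 0.19 for INSIG1 and -0.19 to 0.11 for LPIN1. The causes were not tested.

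Replicate numbers were not taken as pairs, since the same-numbered correlation was not over 0.1 in all 4: the correlation of same-numbered libraries about their group means was 0.151, 0.213, 0.0985 and 0.198, and although each DMSO library correlated best with its own number, PR-957 replicate 3 correlated best with DMSO replicate 4 (0.105). With the replicate number as a block, 9 members were lower and 5 were higher, SCD lost its call (adjusted p = 0.07), PMVK (0.0272), SC5D (0.0167) and FADS1 (0.0360) gained one, and TM7SF2 (0.012) and INSIG1 (0.021) changed sign.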

Other observations

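Genes of the same pathways that lie outside the members and outside the naming rule were chosen here after their values were seen, and are given as values from the edgeR test with all 8 libraries. Among partners of INSIG1, the membrane ubiquitin ligase RNF145 was at -0.32 (SE 0.06, adjusted p = 0.000283) and the raft protein ERLIN2 at -0.29 (SE 0.06, adjusted p = 0.000301), and both were also lower without DMSO replicate 4. INSIG2 was at -0.35 (adjusted p = 0.0435) and was not called without that library (-0.20, adjusted p = 0.121). Among receptors, LRP8, the closest relative of VLDLR, rose from 42.5 ± 1.44 to 59.1 ± 6.48 CPM (SD, n = 4), a log2 fold change of 0.48, while VLDLR was lower. SCARB1, a receptor for high-density lipoprotein, was at 0.24 and SOAT1, which esterifies cholesterol for storage, at 0.44. ACSL1, which activates long-chain fatty acids, fell from 131 ± 8.11 to 82.0 ± 4.32 CPM (log2 fold change -0.68, SE 0.06), and DGAT2, which makes triglyceride, was at -0.36. In beta-oxidation HADH was at -0.50 and ACADM at -0.34, while ACADVL, the dehydrogenase of longer chains, was at 0.23 and CPT1A, the carnitine transferase that controls entry, was at -0.02 and not called (adjusted p = 0.789). All genes in this paragraph apart from INSIG2 and CPT1A passed the test in both fits.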
